A study of Mus musculus with 4 samples.

Results

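Disease-associated microglia genes are a set of genes that microglia, the resident macrophages of brain tissue, are known to raise around plaques, dying cells and damaged myelin. The set described here was given as a list of 10 symbols: Cst7, Apoe, Lpl, Itgax, Fabp5, Clec7a, Axl, Igf1, Gpnmb and Lgals3. Of these, 9 each matched 1 of the 32285 genes in the deposited tables, and Clec7a is not analysed here. The members were measured as unique molecular identifiers (UMIs, counts of captured mRNA molecules) in single cells.

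The cells came from the brain of male C57BL/6N mice aged 10 months, and each of the 4 libraries was 1 pool of 4 to 5 mice. One group had sham surgery and an isotype control antibody. The other 3 groups had a stroke made by dMCAO, in which a distal branch of the middle cerebral artery is blocked, and received isotype control, an antibody to VCAM1 (anti-VCAM1) or an antibody to VLA4 (anti-VLA4). VCAM1 is an adhesion molecule of inflamed endothelium, and VLA4 is the integrin on leukocytes that binds it. Antibody treatment lasted 10 weeks in all 4 groups, so no group was free of antibody. The dissected tissue was the lesion core with a rim of about 2 mm of cortex. The cells were stained for CD31, an endothelial protein, and for CD45, a leukocyte protein, and a dye marked dead cells for removal. Which stained fractions were collected is not given in the sources used here, and such a choice can set the mix of cell types.

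In the known course of this microglial state, homeostatic genes such as P2ry12 and Tmem119 go down first. The receptor TREM2 with its adaptor TYROBP then senses lipids and debris, and genes of lipid uptake, lysosomes and phagocytosis go up. Apoe encodes the lipid carrier apolipoprotein E, Lpl encodes lipoprotein lipase and Fabp5 encodes a fatty acid binding protein. Cst7 encodes cystatin F, an inhibitor of lysosomal cathepsins, and Gpnmb encodes a glycoprotein of endosomes and lysosomes. Itgax encodes the integrin CD11c, Axl encodes a receptor for the bridging ligand GAS6, Lgals3 encodes the sugar-binding galectin-3 and Igf1 encodes a growth factor.

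Promoter windows of the members are described here by their letters. Those printed were chosen for a motif match and not for a stroke ratio. RefSeq promoter windows on GRCm38.p6, each from 250 bases before to 50 bases after a gene start, were at hand for 8 of the 10 members. They were searched on both strands for TGANTCA, a loose form of the AP-1 site in which N is any base. The other motifs were GGAAGT, a core of the ETS factors that include PU.1, and CACGTG, the E-box read by TFEB and MITF. TGANTCA was found in 4 of the 7 measured members that had a window, against 7.81% of all 32851 windows. The matches were TGATTCA in Cst7, TGAGTCA in Itgax, TGAATCA in Igf1 and TGACTCA in Gpnmb. The background percentages count windows and not genes, and Apoe had 3 windows. GGAAGT was found in Cst7 and Itgax, against 23.8% of all windows. CACGTG was found in none of the 7, against 7.15% of all windows. The 4 windows with TGANTCA follow on the coding strand, with matches to any of the 3 motifs in capitals, and a match is a description of letters only. The windows are chr2:150570165-150570464 for Cst7, chr7:128129300-128129599 for Itgax, chr10:87860861-87861160 for Igf1 and chr6:49036268-49036567 for Gpnmb, all on the plus strand.
Cst7: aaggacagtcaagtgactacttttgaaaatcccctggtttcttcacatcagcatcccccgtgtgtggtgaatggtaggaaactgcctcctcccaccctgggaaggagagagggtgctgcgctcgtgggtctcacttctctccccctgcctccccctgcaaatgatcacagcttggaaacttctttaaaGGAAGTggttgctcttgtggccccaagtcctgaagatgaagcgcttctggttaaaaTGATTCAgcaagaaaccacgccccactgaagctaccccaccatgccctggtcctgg
Itgax: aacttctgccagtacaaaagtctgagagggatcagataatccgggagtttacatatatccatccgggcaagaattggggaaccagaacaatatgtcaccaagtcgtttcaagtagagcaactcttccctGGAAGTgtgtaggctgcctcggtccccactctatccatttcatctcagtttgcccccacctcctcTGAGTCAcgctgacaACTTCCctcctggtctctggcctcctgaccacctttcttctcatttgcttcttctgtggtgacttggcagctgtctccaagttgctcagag
Igf1: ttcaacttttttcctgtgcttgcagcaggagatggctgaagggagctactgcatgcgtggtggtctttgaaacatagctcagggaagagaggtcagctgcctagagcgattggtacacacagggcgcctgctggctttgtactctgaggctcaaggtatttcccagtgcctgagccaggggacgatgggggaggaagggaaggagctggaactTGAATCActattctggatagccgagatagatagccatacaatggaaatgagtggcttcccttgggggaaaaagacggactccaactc
Gpnmb: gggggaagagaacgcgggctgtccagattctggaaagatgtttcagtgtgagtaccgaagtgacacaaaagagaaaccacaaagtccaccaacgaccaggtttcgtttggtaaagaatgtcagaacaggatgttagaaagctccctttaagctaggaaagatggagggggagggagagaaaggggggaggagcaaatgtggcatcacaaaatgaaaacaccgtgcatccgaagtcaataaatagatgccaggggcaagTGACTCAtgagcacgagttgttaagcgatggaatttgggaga

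Values of 4 libraries are given in a fixed order, with sham first, then stroke with isotype, then stroke with anti-VCAM1 and last stroke with anti-VLA4. The libraries held 1541, 2891, 4751 and 6361 cell barcodes, with 10008987 to 34721356 UMIs in all. After filters and removal of doublets, 1516, 2832, 4662 and 6209 cells were left. Microglia-like cells numbered 690, 1467, 1798 and 2433, in clusters 0, 2, 5, 8, 9 and 12. All 10 microglia markers were detected in the class in each library, with a summed level of 13470 to 14257 CPM (the UMIs of a gene divided by all UMIs of the class and scaled to 1e6). The 10 border macrophage markers summed to 158 to 184 CPM there, with 1 to 3 of them at 0, from Cd163, Lyve1 and Clec10a. The 9 endothelial markers summed to 46.1, 75.7, 114 and 108 CPM in the 4 libraries, none at 0, and their part in the values of Apoe, which endothelial-like cells also carry, was not tested. Cluster 2 was the largest microglia-like cluster in both isotype libraries, with 38.4% and 30.1% of the class. Cluster 0 was the largest with anti-VCAM1 and with anti-VLA4, with 26.5% and 34.7%. Border-macrophage-like cells, from the meninges and perivascular spaces, numbered 112, 183, 59 and 89 and formed cluster 11. Sham and stroke with isotype shared 59 cell barcodes, of which 55 had more UMIs in sham, with medians of 17753 and 606 UMIs. The other pairs of libraries shared 1 to 8. Shared barcodes made up 19, 29, 2 and 11 of the microglia-like cells, and results are given also without them where a value moved.

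With 1 library per group, no test across animals was possible. CPM values carry exact Poisson intervals, shares of cells carry exact Clopper-Pearson intervals, and ratios carry conditional binomial intervals, all at 95% and for counting error only. A gene was called where its log2 ratio (after adding 1 CPM to both libraries) passed 1.5-fold and the libraries compared had 100 or more of its UMIs together. Fewer cells with a transcript and fewer transcripts per cell both lower a CPM, so shares of cells are given beside it. Microglia-like cells had median depths of 7351.5, 6131, 5332.5 and 5222 UMIs, deeper in sham. Shares were therefore taken after each cell was thinned at random to 1000 UMIs, which left out 3, 37, 24 and 34 cells.

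All 9 measured members were higher in microglia-like cells of stroke with isotype than of sham, while most UMIs of each sat in few cells. Apoe, the lipid carrier, was by far the most abundant. Its level was 333 CPM (317 to 349) in sham and 1387 CPM (1363 to 1411) in stroke with isotype. Anti-VCAM1 gave 1810 CPM (1784 to 1837), and anti-VLA4 gave 1577 CPM (1555 to 1598). The 3 stroke libraries lay far above sham, and their intervals did not overlap each other. A UMI of Apoe was found in 10.5% (8.29 to 13.02) of thinned sham cells, in 20.7% (18.6 to 22.9) of stroke cells with isotype, in 22.04% (20.1 to 24.0) with anti-VCAM1 and in 22.8% (21.1 to 24.5) with anti-VLA4. Before thinning the shares were 28.1%, 41.6%, 39.5% and 41.6%. The intervals of the 3 stroke libraries overlapped for the thinned share. In T-cell-like cells (median depths of 3859 to 5930 UMIs), 1.37% to 4.59% of thinned cells had a UMI of Apoe. In B-cell-like cells, which numbered 14, 87, 28 and 40, the thinned shares were 21.4%, 37.2%, 14.3% and 42.5%. The other classes thus differed widely, and neither is taken as a background level.

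Lpl, the lipase that frees fatty acids from lipoproteins, had 2.34 CPM (12 UMIs) in sham, 14.8 CPM (138 UMIs) in stroke with isotype, 19.4 CPM (194 UMIs) with anti-VCAM1 and 9.23 CPM (123 UMIs) with anti-VLA4. Its share of thinned cells was 0 of 687 in sham, where a floor of 3 cells is 0.437% and the exact interval runs to 0.536%, and 0.699%, 0.620% and 0.875% in the stroke libraries. The order of the stroke libraries by CPM, highest with anti-VCAM1, was therefore not the order by share of cells. In stroke with anti-VCAM1, 1 cell held 50.5% of all Lpl UMIs, 98 of 194.

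Fabp5, the fatty acid carrier, had 4.09 CPM (21 UMIs) in sham, 14.0 CPM (130 UMIs) in stroke with isotype, 27.7 CPM (277 UMIs) with anti-VCAM1 and 23.3 CPM (310 UMIs) with anti-VLA4. Its thinned shares were 0.582%, 0.629%, 1.01% and 1.08%, so the share in sham lay within the interval of stroke with isotype (0.288 to 1.19). At this depth no difference in the share of Fabp5-positive cells between these libraries was detectable. T-cell-like cells had a Fabp5 UMI in 0.926% to 4.11% of thinned cells, and endothelial-like cells in at most 0.0633%. The T-cell-like share is thus a level in another class and not a background. The microglia-like share lay below the T-cell-like interval of its own library in sham and in stroke with isotype, and within it (0.0234 to 5.05 and 0.833 to 5.85) with anti-VCAM1 and anti-VLA4.

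Cst7, the cathepsin inhibitor, had 7.59 CPM (39 UMIs) in sham, 32.1 CPM (298 UMIs) in stroke with isotype, 27.1 CPM (271 UMIs) with anti-VCAM1 and 40.7 CPM (543 UMIs) with anti-VLA4. Its thinned shares were 0.728% (0.237 to 1.69), 2.10% (1.42 to 2.98), 1.97% (1.38 to 2.73) and 2.29% (1.73 to 2.97). The 3 stroke libraries overlapped each other in share and lay above the sham value. Only the interval of anti-VLA4 lay above the sham interval, and the other stroke intervals overlapped it. T-cell-like cells carry more Cst7, while the 8 T cell markers summed to 3.15 to 7.10 CPM in microglia-like cells, and their part in the Cst7 values was not tested. In endothelial-like cells, at median depths of 3810 to 4449 UMIs, at most 0.162% of thinned cells had a Cst7 UMI.

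Gpnmb, the lysosomal glycoprotein, had 0 UMIs in sham. It had 61 UMIs (6.56 CPM) in stroke with isotype, 64 UMIs (6.39 CPM) with anti-VCAM1 and 130 UMIs (9.76 CPM) with anti-VLA4. With a floor of 3 UMIs for the sham library, stroke with isotype was at least 11.2-fold higher, and the counting interval of the ratio, taken at the 0 UMIs themselves, started at 8.87-fold. No more than 0.682% of unthinned microglia-like cells of any library had a Gpnmb UMI, the lowest such maximum of the 9 members. A single cell held 41.0%, 56.2% and 44.6% of the Gpnmb UMIs in the 3 stroke libraries. The anti-VCAM1 cell, with 36 of 64 Gpnmb and 29 of 175 Lgals3 UMIs, had 0 UMIs of the 10 microglia markers among 4432. Without that cell Gpnmb stood at 2.80 CPM, Fabp5 at 24.6 CPM and Lgals3 at 14.6 CPM in stroke with anti-VCAM1.

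Igf1, the growth factor, had 1 UMI in sham (0.195 CPM) and 64 (6.88 CPM), 62 (6.19 CPM) and 89 (6.68 CPM) in the stroke libraries. The ratio of stroke with isotype to sham was 35.4, with an interval of 6.13 to 1419. Lgals3, galectin-3, had 9, 76, 175 and 87 UMIs, or 1.75, 8.18, 17.5 and 6.53 CPM, and was highest with anti-VCAM1. Axl, the GAS6 receptor, had 4.67, 13.4, 12.9 and 9.01 CPM. Itgax, CD11c, had 14, 47, 64 and 108 UMIs, or 2.72, 5.06, 6.39 and 8.10 CPM, the smallest ratio of stroke with isotype to sham among the 9. Thinned shares of Igf1, Lgals3, Axl and Itgax were at most 0.437% in sham and 0.280% to 1.19% in the stroke libraries. T-cell-like cells had a Lgals3 UMI in 4.13% to 7.65% of thinned cells, above every share of that gene in microglia-like cells.

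**Figure D1:**
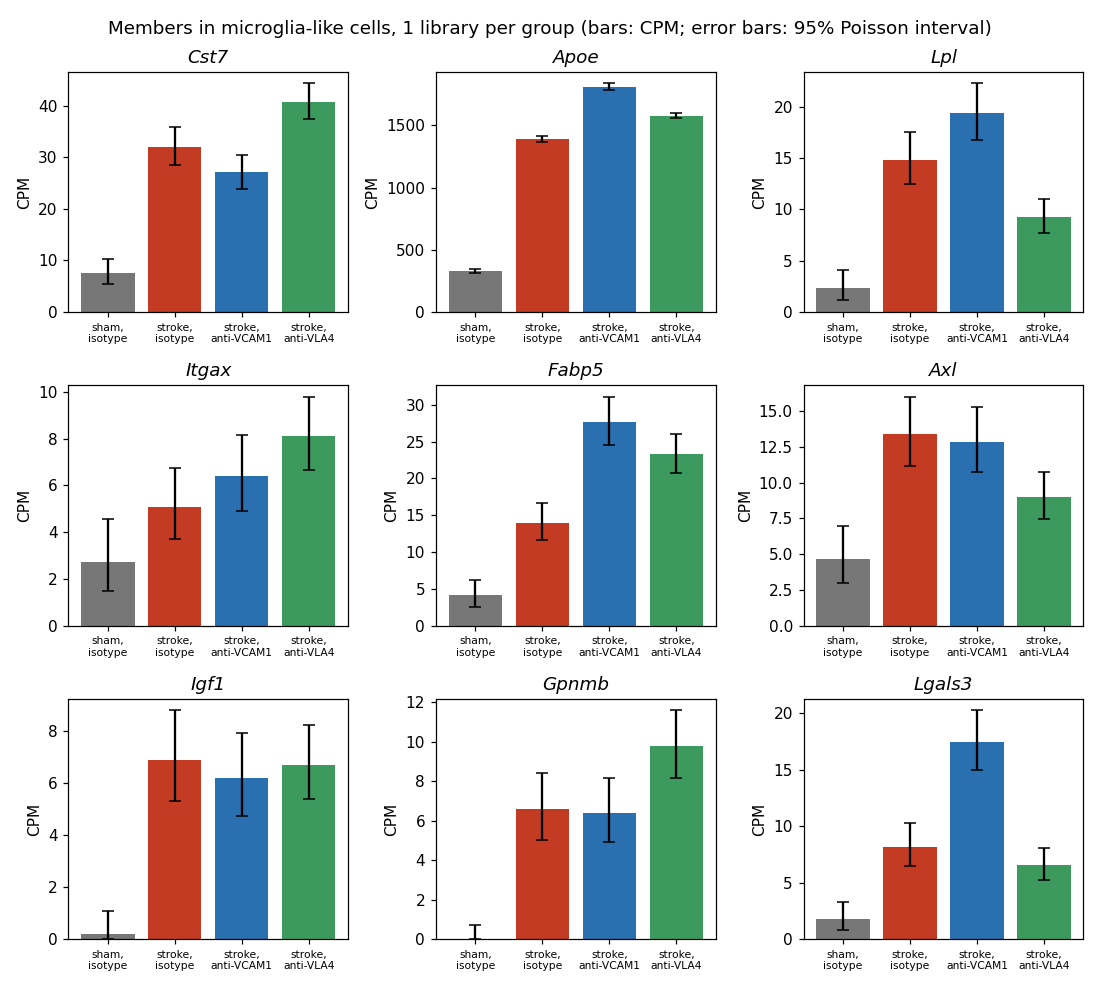
Level of the 9 measured members in microglia-like cells, in CPM on linear axes that start at 0, with 1 bar per library and 95% Poisson intervals. Sham is the lowest bar for each member, and Gpnmb has no UMI in sham.

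Stroke with isotype over sham gave log2 ratios of 1.94 (1.59 to 2.60) for Cst7, 2.06 (1.99 to 2.13) for Apoe, 2.25 (1.82 to 3.66) for Lpl, 1.56 (1.10 to 2.51) for Fabp5 and 1.35 (0.89 to 2.22) for Axl. These had at least 100 UMIs, and 5 of 5 were called higher, where 1.28% of the 9363 genes tested were. When each cell was thinned before summing, Fabp5 was at 0.07, and 1 member, Apoe, was still called, since the others then had fewer than 100 UMIs. Apart from Apoe, with 1710 UMIs in sham, the 5 reached the minimum largely through their UMIs in the stroke library. The count is therefore a description. The other 4 members had fewer UMIs, with ratios of 0.70 (0.01 to 1.87) for Itgax, 1.74 (1.22 to 3.41) for Lgals3, 2.72 for Igf1 and 2.92 for Gpnmb, the last 2 as fitted values that depend on the added CPM. No member was called lower, against 1.04% of genes called lower. The median over the 9 was 1.94, also with Gpnmb at its bound, beside -0.04 over all genes tested. Without the shared barcodes it was 1.93, with Apoe at 2.30.

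Antibody blockade was compared with stroke and isotype, and both comparisons use that same control library. With anti-VCAM1, the antibody against the endothelial adhesion molecule, 2 of 9 members were called higher, where 0.652% of the 9969 genes tested were, and 0 were called lower, where 0.582% were. The members called were Fabp5, at 0.94 (0.68 to 1.30), and Lgals3, at 1.01 (0.70 to 1.503). Both lost the call without the 1% of cells with the most UMIs of the gene, at 0.15 and 0.34. The median over the members was 0.29, beside 0.04 over all genes. Apoe was at 0.38 (0.35 to 0.42), Lpl at 0.36 (0.06 to 0.71) and Itgax at 0.29 (-0.23 to 0.91). Cst7 was at -0.24 (-0.49 to -0.00), and Axl, Igf1 and Gpnmb were at -0.06, -0.13 and -0.03 with intervals that held 0. Lgals3 was at -0.06 where cells were named singly by their markers instead of by cluster.

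With anti-VLA4, the antibody against the leukocyte integrin, 2 of 9 members were called higher, where 0.906% of the 10267 genes tested were, and 1 was called lower, where 1.39% were. Itgax was at 0.59 (0.17 to 1.21), just past the 1.5-fold limit, and Fabp5 was at 0.70 (0.43 to 1.04). Lpl, called lower, was at -0.63 (-1.05 to -0.32), and at -0.32 without the cell with the most Lpl UMIs in each library. The median over the members was 0.18, beside 0.06 over all genes. Gpnmb was at 0.51 (0.12 to 1.03), Cst7 at 0.34 (0.14 to 0.55), Apoe at 0.18 (0.15 to 0.22) and Axl at -0.53 (-0.95 to -0.21). Igf1 at -0.04 and Lgals3 at -0.29 had intervals that held 0. Fabp5 was at 0.25 without the 1% of cells with its most UMIs, and Axl was at -0.59, past the limit, without the shared barcodes.

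**Figure D2:**
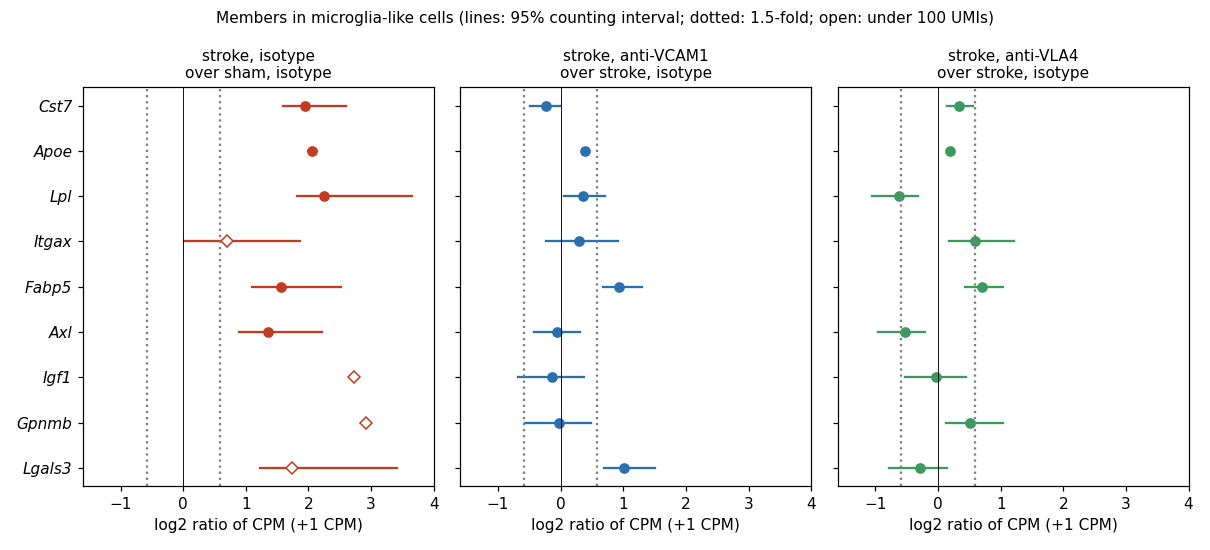
Log2 ratio of CPM (plus 1 CPM) of each member in microglia-like cells for the 3 comparisons, with 95% counting intervals; filled points had at least 100 UMIs. The intervals of Igf1 and Gpnmb in the stroke comparison run past the axis and are not drawn. All 9 members lie to the right of 0 after stroke, and they lie on both sides of 0 with either antibody.

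Members were spread unevenly over cells. The median microglia-like cell had 0 UMIs of each member in each library, and for all members but Apoe the cell at the 90th percentile had 0 as well. For Apoe that cell had 3 UMIs in sham and 11 to 12 in the stroke libraries. The 1 sham cell with the most Apoe had 319 UMIs, and the highest cells of the stroke libraries had 892, 759 and 814. In stroke with isotype, 50% of the UMIs of Lpl, Gpnmb and Lgals3 sat in 2 cells each, those of Cst7 in 15, of Apoe in 22 and of Axl in 26 of 1467 cells. No microglia-like cell had more than 6 UMIs of Axl. In stroke with isotype 1 cell with 14464 UMIs had the most Cst7, Itgax, Fabp5 and Lgals3. It had 41, 10, 20 and 26 UMIs of these genes and 89 UMIs of the microglia markers.

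Cluster 12 was picked, after the levels were seen, as the microglia-like cluster with the highest levels of the members, so high levels there follow from that choice and are a description. The members and the other list genes had been left out of the clustering. Cluster 12 held 16 of 690 microglia-like cells in sham, or 2.32% (1.33 to 3.74), and 90 of 1467 in stroke with isotype, or 6.13% (4.96 to 7.49). It held 103 of 1798 with anti-VCAM1, or 5.73% (4.70 to 6.90), and 178 of 2433 with anti-VLA4, or 7.32% (6.31 to 8.42). The 3 stroke libraries overlapped each other and lay above the interval of sham. In sham it held 20.5% of the Cst7 UMIs, 7.14% of those of Itgax, 37.5% of those of Axl and 42.9% of those of Fabp5, and 58.2% to 77.8% of those of Apoe, Lpl and Lgals3. From 48.8% (Axl) to 95.1% (Gpnmb) of each member's UMIs in stroke with isotype lay in this cluster. Those shares were 57.2% (Cst7) to 92.2% (Gpnmb) with anti-VCAM1 and 58.3% (Axl) to 93.8% (Gpnmb) with anti-VLA4.

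Within cluster 12, Apoe stood at 5603 CPM in sham, 10928 in stroke with isotype, 14677 with anti-VCAM1 and 10842 with anti-VLA4. In the other microglia-like clusters together it stood at 144, 512, 600 and 564 CPM. Cst7 stood at 45.0, 243, 180 and 290 CPM within the cluster and at 6.25, 12.7, 12.7 and 13.5 CPM outside it. Both genes were thus higher in stroke than in sham inside cluster 12 and outside it. The sham levels inside it rest on 16 cells, with 8 UMIs of Cst7 and 996 of Apoe, of which 1 cell held 319. With cluster 12 left out, the stroke ratio was 1.82 for Apoe, 1.08 for Axl, 0.92 for Cst7, 0.84 for Lpl and 0.48 for Fabp5. In that setting 2 members were called higher, since a call also needed at least 100 UMIs, and no share over all genes is given for it. Itgax turned to -0.16 there, at 2.23 CPM in stroke and 2.62 CPM in sham. With the share of each cluster held fixed, the median over the members was 1.29. Cluster 9 had the next highest Apoe and Cst7, at 1384 and 22.3 CPM over all libraries, against 11620 and 234 in cluster 12.

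**Figure D3:**
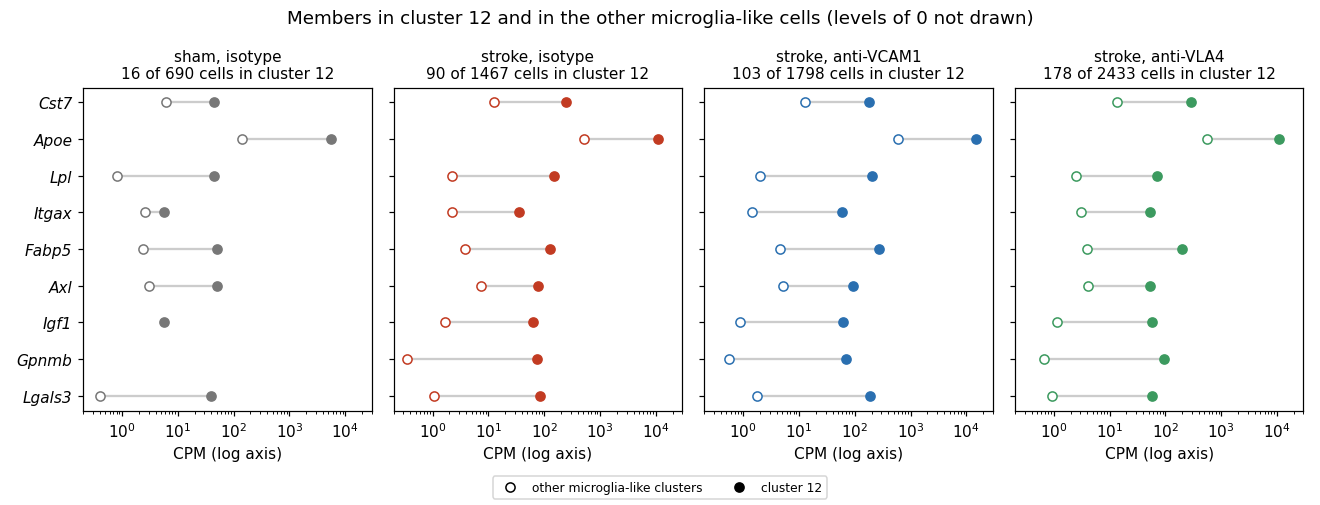
Level of each member in cluster 12 (filled) and in the other microglia-like cells (open) of each library, in CPM on a log axis; levels of 0 are not drawn. The cluster was picked for its high member levels, so its levels are high by choice. In sham, Gpnmb had 0 UMIs inside and outside the cluster, and the only Igf1 UMI, 1 in all, lay inside it.

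Cluster 12 still carried all 10 microglia markers. Their summed level was 9813 to 10924 CPM there and 13793 to 14675 CPM in the other microglia-like cells. P2ry12, a purine receptor of resting microglia, stood at 965 CPM in cluster 12 and at 1087 to 2132 in the others, and Tmem119 at 371 against 323 to 899.8. Border macrophage markers summed to 591, 321, 140 and 121 CPM in cluster 12 and to 159 to 171 outside it. They were thus higher inside the cluster in the isotype libraries and lower with anti-VLA4. With anti-VCAM1 the interval inside the cluster (117 to 168) held the value outside, 159 CPM. The part of these markers in the results was not tested. The interferon response list summed to 2785, 1390, 835 and 1261 CPM in cluster 12, against 181 to 229 outside. Median depth in cluster 12 was 7656 UMIs over all libraries.

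Few cells had several members at once. After thinning, at least 4 members were detected in 0 of 687 sham cells, 4 of 1430 cells of stroke with isotype (0.280%, 0.0763 to 0.715), 5 of 1774 with anti-VCAM1 (0.282%, 0.0916 to 0.657) and 5 of 2399 with anti-VLA4 (0.208%, 0.0677 to 0.486). The exact interval of sham runs to 0.536%, so a difference from stroke in the share with at least 4 was not detectable at this depth. Without thinning the shares were 0.435% (0.0898 to 1.27), 2.32% (1.61 to 3.22), 2.50% (1.83 to 3.33) and 2.42% (1.85 to 3.12). Those shares were taken at unequal depths, with the greatest median depth in sham, and the part of depth was not tested. At least 3 members were found in 0, 10, 15 and 25 thinned cells. The shares in the stroke libraries were 0.699% (0.336 to 1.28), 0.846% (0.474 to 1.39) and 1.04% (0.675 to 1.53). Of these intervals only that of anti-VLA4 lay above the sham interval, which again runs to 0.536%. The highest phi coefficients of pairs, as the mean over the 3 stroke libraries, were those of Fabp5 with Gpnmb at 0.35 (9 cells had both), Igf1 with Gpnmb at 0.26 (4 cells) and Fabp5 with Igf1 at 0.22 (7 cells). Cst7 and Apoe were together in 75 cells of these libraries, at 0.14. Sham had no thinned cell with Igf1 or Gpnmb and gives no coefficient for their pairs. These coefficients rest on few cells of shared libraries and are descriptions.

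Cells with more members had fewer UMIs of the 16 homeostatic genes and more of the 16 lysosome and phagocytosis genes. In stroke with isotype, cells with 0, 1, 2 and 3 or more members had 20.5, 18.6, 15.1 and 7.80 homeostatic UMIs per 1000, in 1109, 274, 37 and 10 cells. Their lysosome UMIs, from genes such as the cathepsins Ctsb and Ctsd, were 13.7, 16.4, 20.9 and 32.4 per 1000. Cells with 3 or more members had 11.7 homeostatic UMIs per 1000 with anti-VCAM1 (15 cells) and 11.9 with anti-VLA4 (25 cells), against 22.03 and 21.8 in cells with none. In sham, cells with none and with 2 members had 21.0 and 14.8. In stroke with isotype, P2ry12 was detected in 75.4% of cells with no member and in 10.0% of the 10 cells with 3 or more. Those shares were 79.9% and 33.3% with anti-VCAM1 and 77.2% and 32.0% with anti-VLA4. The members themselves took up 34.9 to 36.7 UMIs per 1000 in cells with 3 or more, out of a total that thinning fixes. Border macrophage markers were at 1.20 UMIs per 1000 in those cells of stroke with isotype, 0.133 with anti-VCAM1 and 0.240 with anti-VLA4, beside 0.166 to 0.188 in stroke cells with none. Their part in the pattern was not tested.

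**Figure D4:**
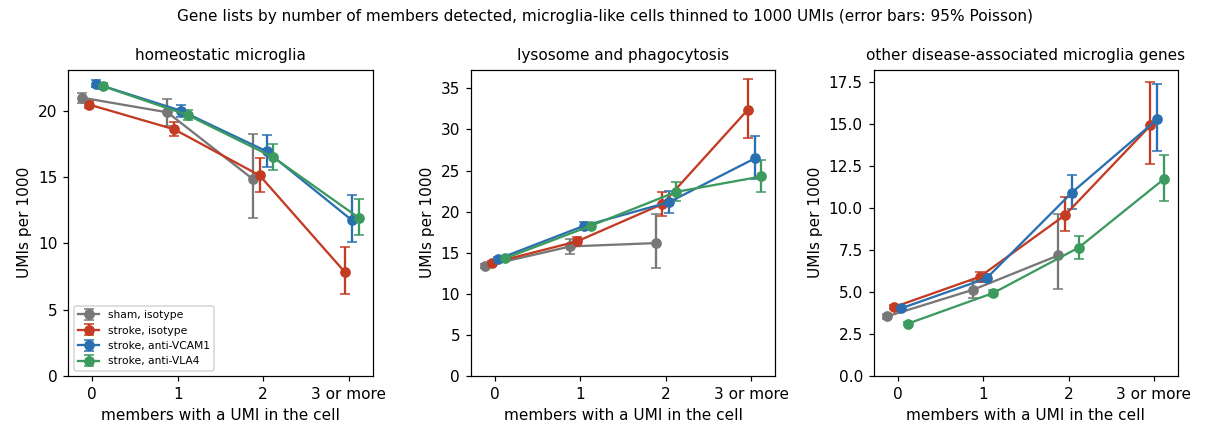
UMIs per 1000 of 3 gene lists (y axis) in thinned microglia-like cells by number of members detected (x axis), 1 line per library, with 95% Poisson intervals. The homeostatic list goes down and the other lists go up with the number of members in the 3 stroke libraries.

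The other genes of the pathway were read from lists of related genes, by the same call. Of the other disease-associated microglia genes, 14 of 20 had at least 100 UMIs and 2 were called higher after stroke, with a median ratio of 0.21. Spp1, which encodes osteopontin, went from 0.195 CPM to 80.0 CPM, but 1 cell held 679 of its 744 UMIs. With each library's highest cell left out it had too few UMIs for a call. Csf1, a growth factor for microglia, was at 1.03 (0.90 to 1.17). Of the 10 TREM2 signalling genes none was called in either direction, with a median of -0.01. Card9, a signalling adaptor, was at -0.40 (-0.78 to -0.06), and Tyrobp was at 0.22 (0.18 to 0.25). Of the lipid genes 2 of 12 were called higher with a median of 0.18, namely Plin2, a lipid droplet coat protein, at 0.74 (0.37 to 1.20) and Pltp, a phospholipid transfer protein, at 1.01, and Hif1a was at 0.41. Without the highest cell of each library Pltp was at 0.29, with too few UMIs for a call. None of the 16 lysosome genes was called, with a median of 0.10 and the cathepsins Ctsb at 0.47 and Ctsl at 0.24. None of 9 tested ligands and partners of the members was called, with Icam1 at -0.26 and Sdc4 at 0.27, and none of the 16 homeostatic genes, with a median of -0.07, Selplg at -0.23 and Slc2a5 at -0.20. Of 7 tested interferon response genes 1 was called higher, Oasl2 at 0.60, with Ifitm3 at 0.54 (0.27 to 0.86) and Ifit2 at 0.29 (-0.11 to 0.75). None of the 6 tested MHC class II genes was called, with Cd74 at 0.25 and H2-Ab1 at 0.22, but 3 were called higher without the highest cell of each library, Cd74 at 0.73, H2-Aa at 1.28 and H2-Eb1 at 0.88. Over all genes the median was -0.04.

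With anti-VCAM1 the medians were 0.09 for the other disease-associated genes, 0.05 for TREM2 signalling, 0.03 for lipid genes, 0.02 for lysosome genes and 0.07 for homeostatic genes, beside 0.04 over all genes. With anti-VLA4 they were 0.06, 0.09, 0.03, 0.02 and 0.08, beside 0.06 over all genes. Of the other disease-associated genes, 1 of 15 was called higher (Fam20c, at 0.67) and 1 lower (Spp1, at -1.69) with anti-VCAM1. The Spp1 value rests on the stroke with isotype cell with 679 UMIs, and with each library's highest cell left out Spp1 turned to 1.21 (0.90 to 1.75) and was called higher. With anti-VLA4 0 of 15 were called higher and 4 lower, namely Spp1 at -2.34, Ccl3 at -0.88, Ccl4 at -0.73 and Csf1 at -0.63. Without the highest cells Spp1 was at -0.03 (-0.51 to 0.45) and the other 3 were still called lower. Pltp, Fam20c, Ccl3, Ccl4, Oasl2, H2-Aa, H2-Eb1, Zfp36, Fos, Fosb, Klf2 and Klf4 were named after their values were seen. Of the 6 tested MHC class II genes, 4 were called lower with anti-VCAM1, H2-Aa at -1.88, H2-Eb1 at -1.86, Cd74 at -0.87 and H2-Ab1 at -0.63, with a median of -0.75 over the 6. H2-Ab1 lost the call, at -0.39, without the highest cell of each library. Dissociation stress genes are known to rise while tissue is digested. Their median was -0.35 after stroke, with 1 of 18 called lower (Zfp36, at -0.64) and 2 higher (Hspa1b at 1.34 and Hspa1a at 0.83). It was -0.34 with anti-VCAM1, with 4 of 18 called lower (Fos, Fosb, Klf2 and Klf4), and -0.55 with anti-VLA4, with 8 of 18 called lower. The part of such stress in the members' values was not tested.

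The genes most like the members across thinned microglia-like cells were ranked by their correlation with the number of members in the cell, among 3494 genes. They were Lyz2 at a mean r of 0.26 over the 4 libraries, Fth1 at 0.24, Cd63 at 0.20, Rps28, Rpl23 and the other ribosomal gene Fau at 0.19, 0.19 and 0.18, and Cd52 and H2-D1 at 0.18. Lyz2 encodes lysozyme, Fth1 a ferritin chain and Cd63 a protein of late endosomes. All 8 were weak correlations in sparse counts over 6290 cells, which share libraries and depth.

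In border-macrophage-like cells Apoe was 10854, 12008, 12620 and 16666 CPM in the 4 libraries. A UMI of Apoe was found in 83.5% to 96.5% of thinned cells. In log2 terms Apoe in microglia-like cells was lower than that by 5.02 in sham, 3.11 in stroke with isotype, 2.80 with anti-VCAM1 and 3.40 with anti-VLA4. Axl had 185, 198, 133 and 171 CPM, and Igf1 had 85.8, 113, 121 and 78.9 CPM, in border-macrophage-like cells. In each of the 4 libraries both lay above their microglia-like levels, with intervals of the ratio that excluded 0. Lgals3 had 115, 221, 512 and 84.7 CPM, where 1 cell of stroke with anti-VCAM1 held 146 of 208 UMIs. Apoe, Axl and Igf1 were higher in border-macrophage-like cells in all 4 libraries under each setting computed. Lgals3 was so except where cells were named singly by their markers. Lpl was so in these clusters, at -1.70 and -1.47 in the isotype libraries but at -0.18 (-1.15 to 0.96) after anti-VCAM1 and -0.29 (-1.49 to 1.15) after anti-VLA4, on 9 and 6 border-macrophage-like UMIs. Its order did not hold at the lower clustering resolution, with cells named singly by their markers or with cells thinned before summing.

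Cst7 was the only member higher in microglia-like cells in all 4 libraries, under each of those settings. In border-macrophage-like cells it had 1, 6, 1 and 0 UMIs, and 0 thinned cells with a UMI in any library. Its log2 ratio of microglia-like to border-macrophage-like cells was 1.95 (0.07 to 7.97) in sham, 2.43 (1.498 to 4.09) in stroke with isotype and 3.02 (0.97 to 8.77) with anti-VCAM1. Gpnmb had 0, 0, 5 and 6 UMIs in border-macrophage-like cells. Fabp5 had 386 CPM there with anti-VCAM1, of which 155 of 157 UMIs were in 1 cell, and 3.68 to 23.1 CPM in the other libraries. Itgax had 18.4, 14.6, 12.3 and 7.70 CPM, and Lpl had 9.80, 43.0, 22.1 and 11.5 CPM.

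In border-macrophage-like cells the lipid carrier Apoe differed little between stroke with isotype and sham. Of the 4 members with at least 100 UMIs there, 1 was called higher, where 2.53% of 3320 genes were, and 0 lower, where 4.07% were. It was Lgals3, at 0.93 (0.59 to 1.30). Apoe was at 0.15 (0.11 to 0.18), Axl at 0.09 (-0.21 to 0.40) and Igf1 at 0.40 (-0.03 to 0.84). The intervals of Apoe, Axl and Igf1 lay below those of the same genes in microglia-like cells, where Igf1 had 1 UMI in sham, and the difference itself was not tested. With anti-VCAM1, 2 of 5 members were called higher there, where 4.80% of 2730 genes were, and 0 lower, where 4.95% were. They were Fabp5 at 4.28 and Lgals3 at 1.21, with 155 of 157 and 146 of 208 UMIs in 1 cell each. With anti-VLA4, 0 of 4 were called higher, where 4.51% of 2884 genes were, and 1 was called lower, where 8.43% were, namely Lgals3 at -1.37 (-1.88 to -0.92).

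**Figure D5:**
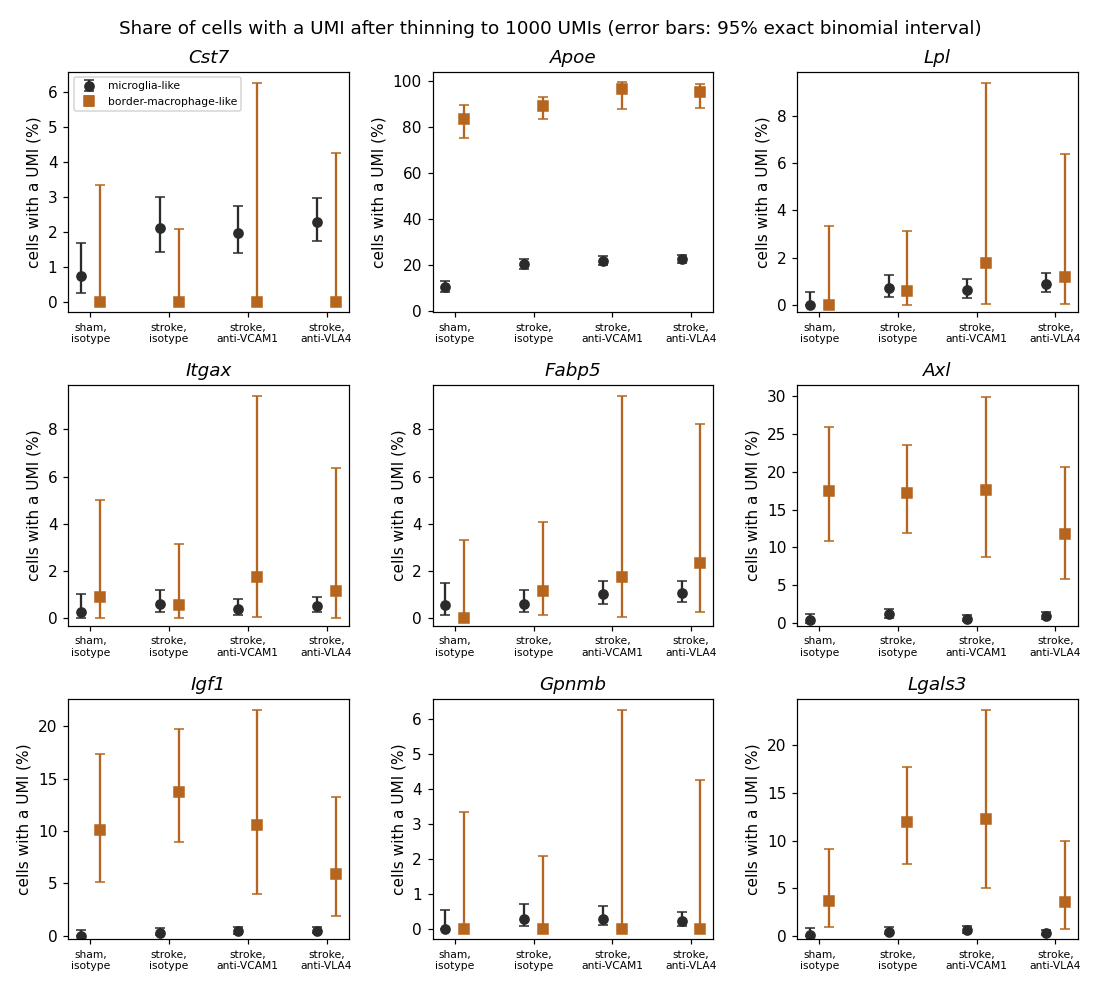
Share of cells with a UMI of each member after thinning to 1000 UMIs, in percent, for microglia-like (circles) and border-macrophage-like cells (squares) of each library, with 95% exact binomial intervals. Apoe, Axl and Igf1 were detected in a larger share of border-macrophage-like cells in all 4 libraries, and Cst7 in none of them.

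Outside these classes, Cst7 was highest in T-cell-like cells, at 77.9, 94.9, 88.0 and 141 CPM, and 4.63% to 11.7% of thinned cells had a UMI. Apoe stood at 643 to 836 CPM in endothelial-like cells and was detected in 41.6% to 51.4% of them, a larger share than in microglia-like cells of the same library. In astrocyte-like cells, which numbered 5 to 41, Apoe stood at 3458 to 9123 CPM. B-cell-like cells, which numbered 14 to 87, had Apoe at 1268, 1203, 2232 and 1773 CPM. Those levels were above microglia-like cells of the same library except in stroke with isotype. In pericyte-like cells, which numbered 10 to 92, Apoe stood at 286 to 1212.5 CPM. Igf1 and Gpnmb were detected in 0 thinned endothelial-like cells of every library. Over the 4 named classes that held 50 cells or more throughout, Apoe was highest in border-macrophage-like cells and lowest in T-cell-like cells, at 26.0 to 68.0 CPM. Between them, endothelial-like cells lay above microglia-like cells in sham and below them in the 3 stroke libraries.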

How the data were processed

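The deposited files are 10x matrices of UMI counts per gene and cell barcode, 1 per library, made by the authors; per the file headers, the software was Cell Ranger 7.0.1. The submitters' processing notes name Cell Ranger 6.0.0, Seurat 4.3.0.1 and the builds mm10 and GRCh38, with no role given. Cells with at least 500 UMIs, 200 genes and at most 10% mitochondrial UMIs were kept, and Scrublet doublets (0.590% to 1.96%) were removed. Clustering (scanpy 1.11.5, leidenalg 0.10.2) used 2000 variable genes, 30 components, 15 neighbours and resolution 1, without 265 technical genes and genes of the lists described, members included. Of 22 clusters, 20 were named from markers, by a rule settled after the clusters were seen, so a difference from the study may come from rebuilt names. UMIs were summed per class and library, and ratios used a pseudocount of 1 CPM. TMM factors came from edgeR 4.0.16. The calculation was checked on simulated data. All members are named, and of each list the 2 genes with the largest stroke ratio in either direction and at least 200 UMIs. The members and lists were chosen with earlier results of these data known. Alternatives varied filters, doublets, clustering, naming, depth, scaling, pseudocount and high cells. Leaving out shared barcodes, cluster 12, low-UMI clusters or the highest cell was chosen after seeing the data.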

Additional observations from a re-analysis of the deposited data

Results flagged for a closer look

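Cst7, the cathepsin inhibitor, and Lpl, the lipoprotein lipase, moved in opposite directions with the blocking antibodies in microglia-like cells. The log2 ratio of Cst7 to stroke with isotype was -0.24 with anti-VCAM1 and 0.34 with anti-VLA4, and that of Lpl was 0.36 and -0.63. Both comparisons share the control library, and the difference between them was not tested. With cluster 12 left out Cst7 was at -0.00 and 0.08. Lpl was at -0.12 and 0.11 there, and at 0.00 and -0.32 without the cell with its most UMIs in each library.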

How the results depend on the processing

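No paired analysis was possible because each group has 1 library, and leaving out a replicate was not possible for the same reason. Over 16 settings, the main one included, the stroke ratio kept its sign for Apoe (1.05 to 2.57), Axl (0.37 to 1.67), Cst7 (0.92 to 2.12), Fabp5 (0.07 to 1.79), Igf1 (1.19 to 4.57), Lgals3 (0.55 to 2.54) and Lpl (0.84 to 3.91). Itgax turned to -0.16 without cluster 12, and Gpnmb was at 0 without the 1% of cells with its most UMIs. The cause of each change below was not tested, except that thinning, the UMI filters and left-out cells change by construction how many UMIs are tested.

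Members called higher after stroke went from 5 to 1 with cells thinned before summing, to 2 without the 1% of highest cells, to 2 without cluster 12 and to 9 with a minimum of 20 UMIs or none. Those 9 include Igf1, with 1 UMI in sham, and Gpnmb, with 0. The shares of all genes printed with the calls above belong to the main setting, and none is given for the settings here. The counts in this paragraph are therefore descriptions. With anti-VCAM1, 2 called higher became 1 under the stricter cell filter, at resolution 0.5 and with each cell named singly by its own markers (own markers). They became 0 with thinning, without the 1% of highest cells and without cluster 12, and the count called lower became 1 with own markers. With anti-VLA4, 2 called higher became 1 with doublets kept, at resolution 0.5, with own markers, with cluster makeup fixed, centred on the median gene and with TMM factors. They became 0 with thinning, without the 1% of highest cells, with a pseudocount of 5 CPM and without cluster 12. The 1 called lower became 2 under the stricter filter, at resolution 0.5, centred on the median gene, and without shared barcodes or low-UMI clusters. It became 3 with own markers and 0 with thinning, without the highest cell and with a pseudocount of 5 CPM.

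When cells were thinned to 2000 UMIs, at least 4 members were found in 0 of 637 sham cells and in 0.527% (0.212 to 1.08) with isotype after stroke. At that depth the share of cells with at least 4 members was 0.892% with anti-VCAM1 and 0.889% with anti-VLA4, both within that interval. Unthinned it was 2.32% with isotype after stroke, 2.50% with anti-VCAM1 and 2.42% with anti-VLA4. For at least 3 members it was 0.699% with isotype after stroke, and 0.846% and 1.04% with the antibodies. With anti-VCAM1 it was 0 for at least 5 members and 0 with Apoe left out. Without cluster 12 it was 0.0598% with anti-VCAM1 and 0 in stroke with isotype and with anti-VLA4.

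Called ratios that changed sign were Lgals3 with anti-VCAM1 (-0.065 with own markers) and Lpl with anti-VLA4 (0.062 without the 1% of highest cells, 0.11 without cluster 12). Ratios that were not called and changed sign ran from -0.92 to 0.01 for Axl, -0.41 to 1.16 for Gpnmb, -0.56 to 0.42 for Itgax and -0.22 to 0.38 for Lpl with anti-VCAM1. With anti-VLA4 they ran from -0.64 to 0.21 for Igf1 and -1.57 to 0.05 for Lgals3. Of microglia-like over border-macrophage-like ratios, own markers gave 5.33 for Fabp5 with anti-VCAM1, and in stroke with isotype 3.06 for Itgax, 0.61 for Lgals3 and 4.02 for Lpl. In that library Itgax was at 0.12 with thinning and Gpnmb at -0.018 at resolution 0.5.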

Other observations

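The members were also present in a pair of clusters that stayed unnamed. Cluster 14, led by Cd209a, Tnip3 and Mgl2, held 33 cells in sham, 96 in stroke with isotype, 45 with anti-VCAM1 and 47 with anti-VLA4. Lgals3 stood there at 398, 630 (stroke with isotype), 649.6 (anti-VCAM1) and 523 CPM, and Itgax at 96.3, 71.2, 73.8 and 70.9 CPM. Both levels were above those in microglia-like cells of the same library. Cluster 20, led by S100a9, S100a8 and Plac8, held 22, 35, 29 and 8 cells. Lgals3 stood there at 697, 1038, 1019 and 706 CPM.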
